A study of Mus musculus with 24 samples.

Results

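The mouse Cd209 family consists of 7 genes, Cd209a to Cd209g, that encode lectins related to human DC-SIGN, and all 7 were taken by symbol from a count table of 41388 genes. Macrophages of 2 tissues had been sorted by flow cytometry for RNA sequencing. One tissue was the dura mater, the tough outermost layer of the meninges. The other was the diaphragm, the main muscle of breathing. All mice were wild-type C57BL/6 animals, 17 weeks old and at steady state. The labels name 3 macrophage subsets per tissue (C1, C2 and C3), with 3 samples of each in dura and 5 in diaphragm, and the sources used here do not give the markers of the sort. The series title and design mention RAG-1 deficient mice that had received T cells, but every sample label gives wild type.

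The column names of the table show the tissue but match no subset label, so no subset was compared. Each dural column name holds 1 of the marks P4, P5 and P6 together with a number, 1, 3 or 4, which gives 3 columns per mark. What a mark stands for is not in the labels. Diaphragm columns carry numbers, and 6 of them repeat the column of the same number with an added prefix. Columns of the same number differed by about sampling noise and were added together. Diaphragm numbers 4 and 5 held almost no counts (2115 and 1496) and were not used. The 9 dural libraries then had 10457920 to 24077834 counts each, and the 7 of diaphragm 11053351 to 30132295. Diaphragm values are given for numbers 1 and 7, 2 and 8, and 3, 6 and 9. These sets were drawn up with earlier results of these data known and are named in no label, so their values are described without a test. In column order, dural marks and diaphragm numbers form blocks that match the sizes and order of the C1, C2 and C3 samples. This includes the near-empty diaphragm columns 4 and 5. No label ties a column to a subset, so the match was not used. Nothing in the labels says that columns came from separate animals, so p-values describe the spread among libraries, which may be technical. All 12 macrophage markers examined were present, and their summed level, in CPM (counts scaled to a library of 1000000 with TMM factors), was 22945 to 30484 CPM in dura and 17906 to 28069 CPM in diaphragm.

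Cd209 proteins are C-type lectins of the cell surface. They bind mannose-rich or fucose-bearing sugars of microbes and host glycoproteins in a calcium-dependent way and carry what they bind into the cell. Human DC-SIGN is known from dendritic cells and tissue macrophages, where it takes up pathogens and modulates cytokine output. In the mouse the ancestral gene has been copied repeatedly. Cd209b (SIGNR1) is known from splenic marginal zone and lymph node macrophages, where it captures bacterial polysaccharides. Cd209a is known from monocyte-derived dendritic cells, and Cd209d (SIGNR3) recognises mycobacteria.

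All 7 genes lie on chromosome 8 of the GRCm38 build, in the following order. Cd209a (ENSMUSG00000031494) occupied chr8:3743397-3748984 on the minus strand. It was followed by Cd209e (ENSMUSG00000040197) at chr8:3847965-3854309, Cd209d (ENSMUSG00000031495) at chr8:3871824-3878555, Cd209b (ENSMUSG00000065987) at chr8:3917655-3926844 and Cd209c (ENSMUSG00000040165) at chr8:3940222-3954746, all on the minus strand. Farther along, Cd209f (ENSMUSG00000051906) occupied chr8:4102787-4105835 on the minus strand and Cd209g (ENSMUSG00000079168) chr8:4134098-4137707 on the plus strand, so that this pair points in opposite directions. No member overlapped another annotated gene.

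Cd209f and Cd209g were near copies of each other. Their longest protein-coding transcripts were 91.49% identical over 1164 aligned bases, against 61.86% to 76.84% for every other pair of members. Their RefSeq promoters were 90.48% identical over 231 aligned bases. The promoters are shown because the RNA of this pair followed the same pattern over the libraries. Cd209a, the member with no called change between dural P5 and P6, and Cd209b, a member that fell, are shown beside them. Sequences are RefSeq promoters on GRCm38.p6, read 5′ to 3′ on the strand of the gene. The last 71 bases before the start of Cd209f and 84 before that of Cd209g are left out. An annotated protein-coding transcript of the gene covers them. Transcripts of other types were not considered. The whole Cd209g window lies within the annotated exons of Cd209g, and the last few bases of the Cd209b window within the span of Cd209b. Capitals mark the run of 83 bases that the Cd209f and Cd209g windows share, and in Cd209a and Cd209b the ETS core TTCCGG.
Cd209f, chr8:4105836-4106014, minus strand: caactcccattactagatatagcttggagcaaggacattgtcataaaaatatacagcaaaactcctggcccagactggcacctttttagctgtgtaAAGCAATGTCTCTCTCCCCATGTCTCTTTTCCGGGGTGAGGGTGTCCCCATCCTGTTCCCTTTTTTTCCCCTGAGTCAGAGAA
Cd209g, chr8:4134486-4134651, plus strand: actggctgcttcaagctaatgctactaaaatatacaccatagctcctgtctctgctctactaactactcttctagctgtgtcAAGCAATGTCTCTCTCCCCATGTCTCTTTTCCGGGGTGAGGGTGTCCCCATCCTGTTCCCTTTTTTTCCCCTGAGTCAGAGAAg
Cd209a, chr8:3748985-3749234, minus strand: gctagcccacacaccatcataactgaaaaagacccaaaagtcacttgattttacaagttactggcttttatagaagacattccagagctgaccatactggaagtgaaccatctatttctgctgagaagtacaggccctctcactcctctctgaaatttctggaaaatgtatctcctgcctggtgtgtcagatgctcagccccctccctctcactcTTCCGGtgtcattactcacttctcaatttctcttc
Cd209b, chr8:3926842-3927091, minus strand: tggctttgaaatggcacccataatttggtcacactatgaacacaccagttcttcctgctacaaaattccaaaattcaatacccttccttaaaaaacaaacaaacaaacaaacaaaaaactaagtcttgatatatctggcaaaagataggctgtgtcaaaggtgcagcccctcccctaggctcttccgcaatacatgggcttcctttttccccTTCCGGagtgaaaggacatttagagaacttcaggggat
The ETS core TTCCGG, the recognition core of a large family of transcription factors, was found in 5 of the 7 promoters (Cd209a, Cd209b, Cd209e, Cd209f and Cd209g) within the 250 bases before the start on either strand. It was present in 12.03% of 32851 promoters of the same length. The AP-1 motif TGANTCA was present in Cd209f and Cd209g, inside the shared run, and in 6.749% of promoters. The TATA box TATAAA was present in Cd209a, Cd209f and Cd209g and in 12.368% of promoters. Its matches in Cd209f and Cd209g lay in the bases left out of the printed sequences. That in Cd209a was on the opposite strand, at -184 to -179. GAGGAA, a core of PU.1 sites that can overlap other ETS sites, was present in Cd209d and in 23.253% of promoters. These matches describe letters in the 250 bases before the start and show no binding.

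Most Cd209 RNA in dura P4 and P5 was Cd209f, and the 3 genes Cd209f, Cd209b and Cd209g dropped together to a few CPM in dura P6. Values for dura are given in the order of numbers 1, 3 and 4. Cd209f stood at 532, 524 and 474 CPM at P4, at 381, 428 and 444 CPM at P5, and at 8.5, 7.86 and 8.01 CPM at P6. The 3 P6 columns lay far below the other 6, and all P5 columns lay below all P4 columns. Cd209b stood at 205, 185 and 199 CPM at P4, at 129, 123 and 139 CPM at P5, and at 6.75, 2.80 and 5.39 CPM at P6. Cd209g stood at 122, 112 and 114 CPM at P4, at 99.3, 106 and 106 CPM at P5, and at 4.09, 2.02 and 3.23 CPM at P6. Both genes repeated the order of Cd209f, with no overlap between marks. In these bulk samples, fewer cells that carry a transcript and less transcript per cell cannot be told apart.

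**Figure D1:**
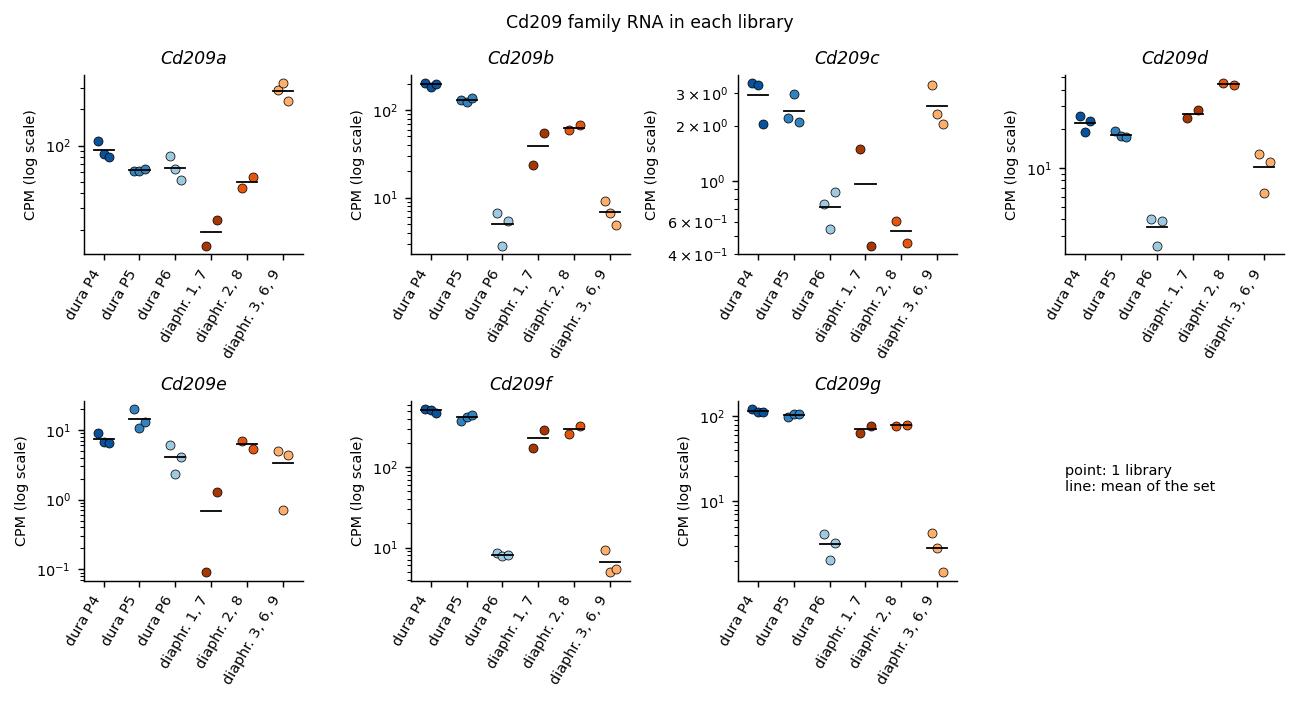
Cd209 RNA in the 16 libraries, as CPM on log axes with a separate scale for each gene. Each point is 1 library and each line the mean of the 2 or 3 libraries of a set. Cd209b, Cd209f and Cd209g are low in dura P6 and in diaphragm 3, 6 and 9, where Cd209f stays under 10 CPM, whereas Cd209a reaches 235 to 333 CPM in diaphragm 3, 6 and 9 and 51.3 to 81.3 CPM in dura P6.

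The other 4 members were lower in level or behaved differently. Cd209d stood at 24.8, 18.7 and 23.0 CPM at P4, at 19.1, 17.5 and 17.3 CPM at P5, and at 4.0, 2.49 and 3.90 CPM at P6. Its P4 and P5 columns overlapped and its P6 columns lay below them. Cd209e was at 9.08, 6.64 and 6.43 CPM at P4, at 19.9, 10.6 and 12.8 CPM at P5, and at 6.00, 2.34 and 4.04 CPM at P6. It was the member with its highest values at P5, where all 3 columns lay above all others in dura. Cd209c was close to the limit of detection throughout. It had 37 to 53 counts per column at P4, 26 to 50 at P5 and 7 to 13 at P6, which is at most 3.43 CPM. Cd209a stood at 109, 84.9 and 80.3 CPM at P4, at 61.7, 61.7 and 63.4 CPM at P5, and at 81.3, 63.8 and 51.3 CPM at P6. Its P6 columns overlapped both other marks.

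Dura P6 was compared with dura P5 by edgeR's quasi-likelihood test over 13239 genes, with p-values adjusted by Benjamini and Hochberg's method and called under 0.05. Of the 7 members, 6 fell and none rose, against 8.98% of all genes tested that fell and 8.38% that rose. Cd209f fell by 5.66 ± 0.11 on the log2 scale (SE; adjusted p = 2.99e-11), which is 50.7-fold. Its change ranked at 20 of 13239 genes by size. Cd209g fell by 5.04 ± 0.18 (adjusted p = 9.39e-09), a 32.9-fold difference, and Cd209b fell by 4.69 ± 0.21 (adjusted p = 4.25e-08), a 25.9-fold difference. Cd209d fell by 2.35 ± 0.22 (adjusted p = 1.72e-05), 5.09-fold, and Cd209e fell by 1.79 ± 0.35 (adjusted p = 0.00422), 3.46-fold. The changes therefore spanned a wide range among genes that all passed. Cd209c fell by 1.70 ± 0.50 (adjusted p = 0.0371), a call that rests on few counts. Cd209a differed by 0.09 ± 0.16 (adjusted p = 0.776), with a 95% interval of the log2 difference from -0.26 to 0.44. All 3 P6 columns lay below all 3 P5 columns for 6 members, and for 18.5% of all genes. The median log2 change was -2.35 over the members and 0.0039 over all genes.

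The calls of Cd209b, Cd209d, Cd209e, Cd209f and Cd209g in P6 against P5 held with each of the 9 dural libraries left out in turn. The Cd209c call was lost without each of 7 of them (P4 number 3, and every P5 and P6 column), with adjusted p up to 0.142. It was also lost with limma-voom (adjusted p = 0.0973) and without a filter on low counts (adjusted p = 0.0966). When all 16 libraries shared the fit, with the diaphragm as a further level, only Cd209b of the 6 passed, and the estimated errors were larger. The SE of Cd209f was then 1.42 and its adjusted p 0.0656, at the same log2 difference of -5.67.

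Against dura P4, 6 members were lower in dura P6, where 17.3% of all genes fell and 16% rose. This comparison shares its columns with those above. Cd209f fell by 5.97 ± 0.11 on the log2 scale (edgeR adjusted p = 4.63e-12), 62.6-fold. Cd209b fell by 5.30 ± 0.22 (adjusted p = 7.91e-09) and Cd209g fell by 5.22 ± 0.18 (adjusted p = 2.01e-09). The fall was 39.4-fold for Cd209b and 37.2-fold for Cd209g. Cd209d fell by 2.67 ± 0.22 (adjusted p = 2.33e-06) and Cd209c fell by 2.0 ± 0.51 (adjusted p = 0.00908). Cd209a was lower by 0.48 ± 0.16 (adjusted p = 0.036), a call lost without P4 number 1, P5 number 3 or 4, or P6 number 3 or 4 (adjusted p up to 0.138). Cd209e differed by -0.84 ± 0.35 (adjusted p = 0.0878), and it passed without P6 number 1 (-1.18, adjusted p = 0.0283) and without a filter on low counts (-0.84, adjusted p = 0.0455).

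Dura P5 and dura P4 differed little in this family. Of the 7 members, 1 fell and none rose, where 4.26% of all genes fell and 3.09% rose. Cd209b fell by 0.61 ± 0.17 on the log2 scale (edgeR adjusted p = 0.0495), 1.52-fold. Cd209f differed by -0.31 ± 0.08 (adjusted p = 0.0501) and Cd209a by -0.57 ± 0.16 (adjusted p = 0.052), on the other side of the threshold by a small margin. All 3 P5 columns lay below all 3 P4 columns for 4 members (Cd209a, Cd209b, Cd209f and Cd209g), and for 13.7% of all genes. Cd209e had the opposite sign, 0.95 ± 0.34 (adjusted p = 0.126), and was called higher without a filter on low counts (0.97, adjusted p = 0.0291). The Cd209b call was lost without each P4 and P5 column and without P6 number 4 (adjusted p from 0.0663 to 0.194). DESeq2, limma-voom and scaling by library totals alone called 3 members lower, namely Cd209a, Cd209b and Cd209f. These settings also called more of the 13239 genes in either direction. The counts were 1448 with DESeq2, 1215 with limma-voom and 1042 with library totals, against 973 in the main fit. Scaling by library totals moved the median of all genes to -0.13, and the calls then split into 231 higher of 1042 against 409 of 973 with TMM factors.

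**Figure D2:**
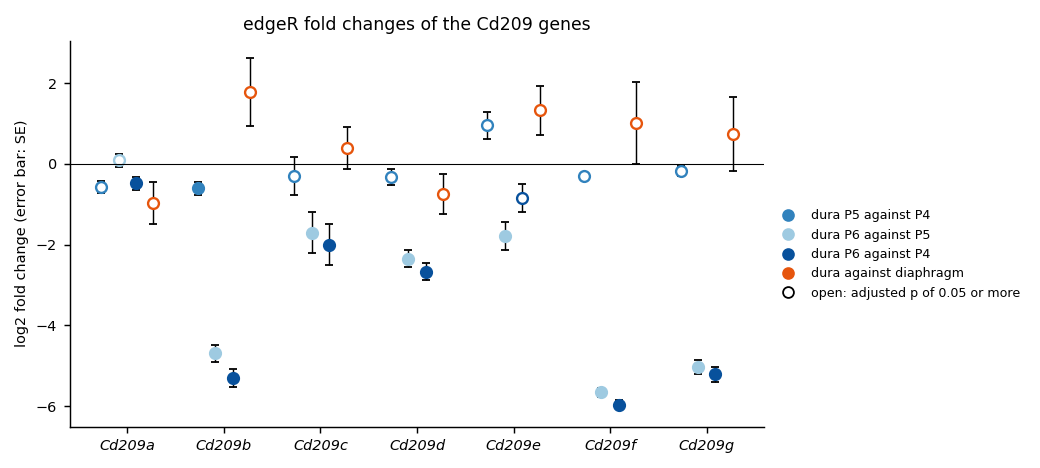
Log2 fold changes of the 7 Cd209 genes from edgeR in 4 comparisons, with standard errors as bars. Filled points passed an adjusted p of 0.05 and open points did not. Cd209b, Cd209f and Cd209g fall by 4.69 to 5.97 in dura P6 against P5 or P4, and no point of dura against diaphragm is filled.

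In the diaphragm the family divided along the numbers. Cd209f stood at 174 and 294 CPM in libraries 1 and 7, at 263 and 329.6 CPM in libraries 2 and 8, and at 9.42, 4.91 and 5.41 CPM in libraries 3, 6 and 9. Cd209g stood at 64.1 and 77.8 CPM, at 78.0 and 79.5 CPM, and at 4.19, 2.80 and 1.46 CPM in the same order. Cd209b stood at 23.7 and 54.8 CPM, at 58.8 and 67.1 CPM, and at 9.12, 6.61 and 4.87 CPM. Libraries 3, 6 and 9 were below the other 4 for all 3 genes without overlap. The share of all genes separated in this way was not counted in the diaphragm, so how unusual such a gap is remains unknown. Cd209f was 45.1-fold lower there in the mean than in libraries 2 and 8, and Cd209b 9.17-fold lower.

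Cd209a had the reverse pattern in the diaphragm. It stood at 14.6 and 23.9 CPM in libraries 1 and 7, at 44.5 and 54.4 CPM in libraries 2 and 8, and at 291, 333 and 235 CPM in libraries 3, 6 and 9. The last 3 libraries held the highest Cd209a values of all 16, and their mean of 287 CPM was 5.80-fold that of libraries 2 and 8. It was also 4.38-fold the mean of dura P6 (65.4 CPM), although Cd209f, Cd209g and Cd209b were about equally low in both sets. Mean levels of Cd209f were 8.13 CPM in dura P6 and 6.58 CPM in diaphragm 3, 6 and 9, with overlapping values. The P6 and diaphragm libraries also differed in dendritic cell markers. The 9 markers of conventional dendritic cells summed to 609 to 700.5 CPM in diaphragm 3, 6 and 9 and to 407 to 468 CPM in dura P6. Ccr7, the receptor that guides migrating dendritic cells to lymph nodes, is 1 of these 9. It stood at 208 to 284 CPM in diaphragm 3, 6 and 9 and at 2.29 to 7.40 CPM in dura P6. Its difference was about as large as that of the sums, so the sums do not show how the other markers differed. Single markers went both ways. Flt3 had means of 40.3 CPM in diaphragm 3, 6 and 9 and 10.6 CPM in dura P6, and Clec9a of 9.65 and 16.4 CPM. The part of these markers in the Cd209a levels was not tested.

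Cd209d shared the order of Cd209f, Cd209g and Cd209b in the diaphragm, with a smaller range. It was highest in libraries 2 and 8, at 45.2 and 43.6 CPM, above its highest dural value of 24.8 CPM. It stood at 24.1 and 27.9 CPM in libraries 1 and 7 and at 12.8, 6.41 and 11 CPM in libraries 3, 6 and 9, which lay below the other 4 without overlap. Cd209e had 2 counts in library 1 (0.0904 CPM) and 35 in library 7 (1.29 CPM), while libraries 2 and 8 held 7.02 and 5.35 CPM. Its values in libraries 3, 6 and 9 were 5.01, 0.701 and 4.37 CPM, so that library 6 stood apart from the other 2. Cd209c stayed between 0.441 and 3.34 CPM, with its highest diaphragm value in library 3. Of its 2195 distinct 75-base stretches, 8.929% also occur in other annotated genes, so its low counts are uncertain.

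Ratios between members differed between sets of libraries. The ratio of Cd209b to Cd209d counts was 8.26 to 9.86 at dura P4 and 6.77 to 8.06 at dura P5, and 0.985 to 1.96 in diaphragm libraries 1, 7, 2 and 8. The ranges at P4 and P5 did not overlap with that of these 4 diaphragm libraries. At dura P6 it was 1.13 to 1.69, inside the diaphragm range, and in diaphragm 3, 6 and 9 it was 0.442 to 1.03, so the ratio did not separate the tissues as a whole. The ratio of Cd209f to Cd209g was steadier, at 4.16 to 4.69 at P4, 3.84 to 4.19 at P5 and 2.72 to 4.15 in diaphragm libraries 1, 7, 2 and 8. Where both genes were low it was 2.08 to 3.89 (dura P6) and 1.75 to 3.72 (diaphragm 3, 6 and 9). Of 2268 distinct 75-base stretches of Cd209f, 533 also occur in Cd209g, and the longest run their transcripts share is 416 bases. No source used here says how the counting treated such reads, so the split of counts between this pair is uncertain.

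Levels of different genes can be compared only per length. Per kilobase of annotated exon, Cd209f led at dura P4 with 256 ± 16 CPM per kb (SD, n = 3), followed by Cd209b with 92.8 ± 5.01, Cd209a with 57.8 ± 9.83 and Cd209g with 32.1 ± 1.51. Cd209d had 24.1 ± 3.42, Cd209e 4.10 ± 0.82 and Cd209c 1.47 ± 0.38 CPM per kb. Cd209g has a long annotated transcript that keeps an intron. With the length of the longest protein-coding transcript instead, Cd209g came to 99.2 ± 4.67 CPM per kb and stood beside Cd209b at 96.3 ± 5.20, and Cd209f came to 429.9 ± 26.7. On the exon scale Cd209b, Cd209f and Cd209g together made up 79.5% to 82.8% of the family at P4, 79.6% to 82.6% at P5 and 11.6% to 16% at P6. Cd209a made up 69.2% to 79.9% at P6. In the diaphragm the 3 genes made up 69.1% to 80.8% in libraries 1, 7, 2 and 8 and 2.83% to 4.80% in libraries 3, 6 and 9, where Cd209a made up 86.5% to 93.4%. Summed over all members, the family stood at 946.0 ± 55.0 CPM at P4, 749 ± 36.0 at P5 and 90.0 ± 18.7 at P6.

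**Figure D3:**
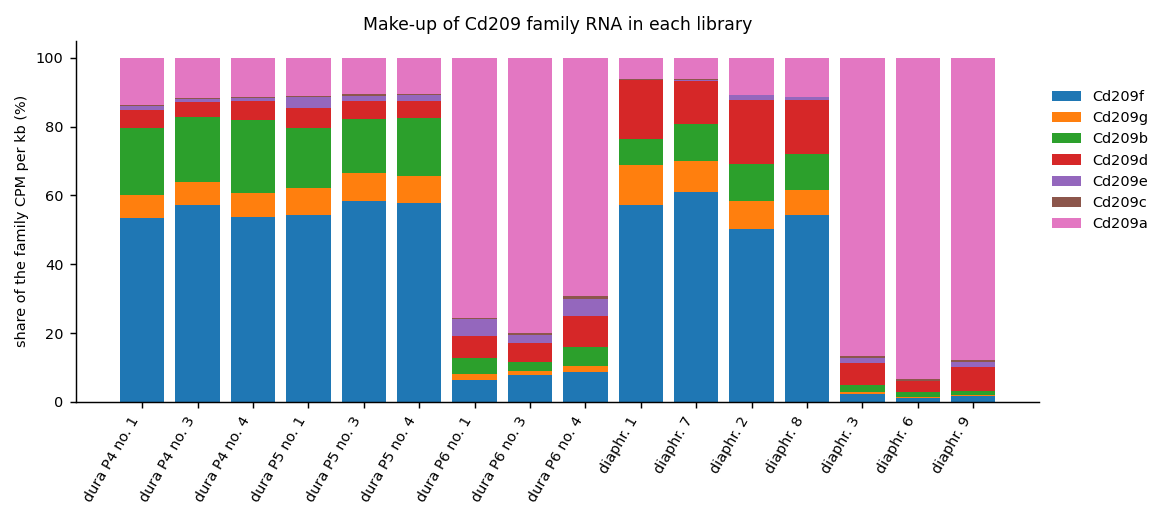
Share of each Cd209 gene in the summed family level, in percent of CPM per kilobase of exon, for each of the 16 libraries. Cd209a fills 69.2% to 93.4% of the bar in dura P6 and diaphragm 3, 6 and 9, and Cd209f 50.3% to 61.1% in all other libraries.

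Dura was compared with diaphragm over all 16 libraries, which asks whether the tissues differ as a whole. None of the 7 members passed the edgeR test, where 26.4% of 13136 genes did (11.2% higher and 15.3% lower in dura). DESeq2 and limma-voom also called none, and at an unadjusted p under 0.05 there was 1 member, Cd209e (p = 0.0444). Cd209f ranged from 7.86 to 532 CPM in dura (median 428) and from 4.91 to 329.6 CPM in diaphragm (median 174). Its log2 difference, dura minus diaphragm, was 1.01 ± 1.02 (adjusted p = 0.503), with a 95% interval from -1.15 to 3.17. Every member overlapped between the tissues. The interval for Cd209g ran from -1.20 to 2.69, for Cd209c from -0.69 to 1.49 and for Cd209d from -1.80 to 0.29, so that sizable differences in either direction lie within most of them. Cd209e differed by 1.33 ± 0.61 (adjusted p = 0.12).

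The tissue comparison of Cd209a and Cd209b depended on which libraries entered. Cd209b ranged from 2.80 to 205 CPM in dura (median 129) and from 4.87 to 67.1 CPM in diaphragm (median 23.7). It differed by 1.78 ± 0.84 (edgeR adjusted p = 0.131, interval from -0.0024 to 3.55), and without the dural P6 columns by 2.36 (adjusted p = 0.00637). Cd209a ranged from 51.3 to 109 CPM in dura (median 63.8) and from 14.6 to 333 CPM in diaphragm (median 54.4). It differed by -0.98 ± 0.52 (adjusted p = 0.184, interval from -2.08 to 0.13). Without diaphragm libraries 1 and 7 it was lower in dura by -1.41 (adjusted p = 0.0115), and without libraries 3, 6 and 9 it was higher in dura by 1.12 (adjusted p = 0.018). Tissue and any batch that goes with it cannot be told apart. Among all genes called, 1465 of 3472 were higher in dura with TMM factors, 2008 of 3696 with upper-quartile factors and 2350 of 3851 with library totals, which moved the median of all genes to 0.12.

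Across the 16 libraries, the genes most like Cd209f by Pearson correlation of log2(CPM + 1) were Chp2 (r = 0.985), Igf1 (r = 0.985), a growth factor, and Gprc5c (r = 0.985), an orphan receptor. The same 3 led for Cd209g, at r = 0.982 for Gprc5c and Chp2 and 0.979 for Igf1. Chp2 stood at mean levels of 303 CPM at P4, 260 at P5 and 34.7 at P6, and at 192, 214 and 39.4 CPM in the diaphragm sets. Cd209b was most like Trpv4 (r = 0.980), a cation channel, Osgin1 (r = 0.978) and the lectin Clec4n (r = 0.970). Cd209d was most like Folr2 (r = 0.968), a folate receptor of resident macrophages, Ninj1 (r = 0.963) and Serpinb6a (r = 0.953). Cd209a was most like Ahcyl2 (r = 0.936), Rap2a (r = 0.926) and Lmo4 (r = 0.913). For Cd209e they were Arf3 (r = 0.894), Cyb561d1 (r = 0.882) and Fcgr3 (r = 0.880), and for Cd209c Mapk3 (r = 0.840), Pde3b (r = 0.817) and Tmem243 (r = 0.739). Among members, Cd209f and Cd209g had r = 0.996 and Cd209f and Cd209b r = 0.962. Cd209f and Cd209g share sequence, and how reads from it were counted is not known. Their counts may therefore not be independent, nor the like genes they have in common. These values describe libraries that fall into clusters and share numbers, and 9838 genes were ranked.

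The genes listed as chromosomal neighbours of the family did not share its drop. They were listed by name, and their positions were not checked against the gene models. Of 12 neighbours tested in dura P6 against P5, 1 rose and none fell (8.38% and 8.98% of all genes). Their median log2 change was -0.05. The gene that rose was Mcemp1, a membrane protein of mast cells and monocytes (2.30, edgeR adjusted p = 0.00945). The other 11 neighbours tested were Trappc5, Stxbp2, Xab2, Pet100, Evi5l, Ccl25, Cers4, Cd320, Snapc2, Map2k7 and Zfp958, with log2 differences from -0.21 to 0.57. Fcer2a, Retn, Pcp2 and Lrrc8e were too low to be tested in any comparison, and Fbn3 was not matched by symbol. Clec4g, a lectin of sinusoidal endothelium, was tested in the tissue comparison alone, where it was lower in dura (-7.23, adjusted p = 0.000168). It stood at 179 CPM in the mean of diaphragm 1 and 7 and at no more than 0.467 CPM in the mean of any dural mark. Of 13 neighbours tested between tissues, Mcemp1 was the other lower gene, and Map2k7 and Zfp958 were higher in dura. Among all genes 15.3% were lower and 11.2% higher.

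A further list held genes of the route downstream of human DC-SIGN together with its ligands Icam2, Icam3 and Ceacam1. Of these genes, 12 were tested in dura P6 against P5, of which 1 rose and 1 fell (8.38% and 8.98% of all genes). Lsp1, an actin-binding protein that associates with DC-SIGN, rose by 2.62 ± 0.11 (edgeR adjusted p = 2.8e-08), from a mean of 56.5 to 341 CPM. It was at 773 CPM in diaphragm 3, 6 and 9 and at 161 and 119 CPM in the means of the other 2 diaphragm sets, so that it was high where Cd209f was low. Arhgef12, a guanine nucleotide exchange factor, fell by 0.73 ± 0.17 (adjusted p = 0.0109). Ksr1, Pak1, Src, Rhoa, Icam2, Ceacam1, Map2k1 and Mapk3 were among those that did not pass, with differences from -0.59 to 0.99. Cnksr1 was too low to be tested and Icam3 was not matched. In P6 against P4, 7 rose (16% of all genes), among them Lsp1, Ksr1, Pak1, Rhoa, Icam2 and Map2k1. Arhgef12 and Src were the 2 that fell (17.3% of all genes). In P5 against P4, Lsp1 alone rose and none fell (3.09% and 4.26% of all genes). Between tissues Ksr1, Rhoa, Icam2 and Ceacam1 were lower in dura, and no gene of the 12 was higher (15.3% and 11.2% of all genes).

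The drop of the family in dura P6 came with a broad exchange of macrophage genes. Of 15 genes of resident perivascular-type macrophages tested in P6 against P5, 15 fell (8.98% of all genes). Their median log2 change was -1.71, against 0.0039 over all genes. The lowest adjusted p-values (edgeR) belonged to Cbr2, with a log2 change of -1.89 (adjusted p = 4.25e-08), the scavenger receptor Cd163, with -2.93 (adjusted p = 6.69e-08), and the growth factor Gas6, with -1.57 (adjusted p = 9.63e-08). Of 17 genes of monocyte-derived antigen-presenting cells, 16 rose (8.38% of all genes), with a median of 2.53, and Zbtb46 fell. The class II invariant chain Cd74 rose by 0.72 (adjusted p = 1.63e-06), Plbd1 by 1.08 (adjusted p = 3.96e-06) and the class II gene H2-Eb1 by 0.69 (adjusted p = 5.76e-06). These lists were drawn up with earlier results known and are not independent evidence of direction. In P5 against P4, 10 of the 17 antigen-presenting genes rose and none fell, and 5 of the 15 resident genes fell. Among all genes 3.09% rose and 4.26% fell. H2-Aa, a class II gene, stood at 998 to 1169 CPM at P4, at 9841 to 11189 CPM at P5 and at 14600.1 to 15319 CPM at P6. Cd209f, Cd209g and Cd209b were thus high in P5, where H2-Aa was already high, and low in P6. Ccr2, a chemokine receptor of monocytes, stood at 33.3 to 102 CPM at P4, at 254 to 278 CPM at P5 and at 1457 to 1632 CPM at P6.

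**Figure D4:**
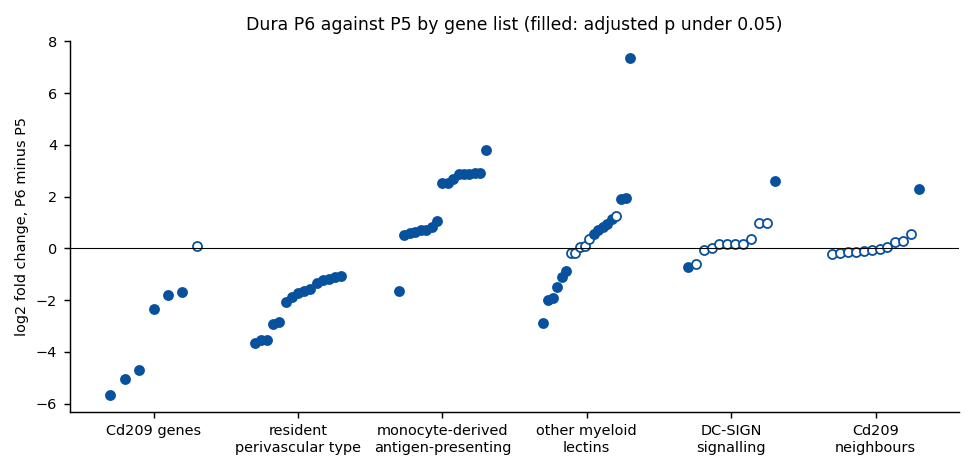
Log2 fold changes of single genes in dura P6 against P5 for the Cd209 genes and 5 gene lists, ordered by size within each list. Filled points passed an adjusted p of 0.05 in edgeR. The lowest Cd209 points, at -5.66, -5.04 and -4.69, lie below every gene of the other 5 lists, and the 15 resident genes lie between -3.67 and -1.08.

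Other lectins of myeloid cells were divided. Of 20 tested in dura P6 against P5, 8 rose and 6 fell (8.38% and 8.98% of all genes). Clec4n (dectin-2), a receptor for fungal mannans, fell by 2.0 (edgeR adjusted p = 4.25e-08), Clec10a, a galactose-type lectin, fell by 1.90 (adjusted p = 1.15e-07), and the scavenger lectin Colec12 fell by 2.87 (adjusted p = 1.11e-05). None of these fell as far as Cd209f. Between tissues, 3 of 20 were higher and 6 lower in dura (11.2% and 15.3% of all genes). Clec4d was lower by -2.76 (adjusted p = 3.98e-07), Clec4e, a receptor for mycobacterial glycolipid, by -3.68 (adjusted p = 1.64e-05) and langerin (Cd207) by -7.32 (adjusted p = 3.24e-05).

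Interleukin-4 and GM-CSF are textbook inducers of human DC-SIGN and of mouse Cd209a in cultured monocytes. Of 18 genes of this route tested in dura P6 against P5, 2 rose and 1 fell. Among all genes 8.38% rose and 8.98% fell, so these counts were near the general share. The GM-CSF receptor chain Csf2ra rose by 0.88 (edgeR adjusted p = 3.5e-05) and the secreted protein Retnla by 1.65 (adjusted p = 0.00367), while the interleukin-4 receptor Il4ra fell by 0.67 (adjusted p = 0.00194). Between tissues, 1 of 20 was higher and 7 were lower in dura (11.2% and 15.3% of all genes). Retnla was lower by -5.54 (adjusted p = 1.39e-05), the transcription factor Irf4 by -2.16 (adjusted p = 1.97e-05) and Klf4 by -0.91 (adjusted p = 0.00024). Irf4 had its highest mean, 143 CPM, in diaphragm 3, 6 and 9, where Cd209a was highest. Its means were 54.3 CPM in diaphragm 1 and 7, where Cd209a was lowest, and 58.1 CPM in diaphragm 2 and 8. In dura they were 17.6 CPM at P4, where Cd209a had its highest dural mean, 23.0 CPM at P5 and 22.6 CPM at P6. Irf4 and Cd209a thus did not share their order over the sets, and a link was not tested.

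Markers of other cell types also moved with the marks. The 8 fibroblast markers, all present, summed to 2066 to 3743 CPM at P4, 584 to 781 CPM at P5 and 251 to 389 CPM at P6. They summed to 7564 to 15585 CPM in diaphragm libraries 1 and 7, 522 to 837 CPM in libraries 2 and 8, and 290 to 740.3 CPM in libraries 3, 6 and 9. Cd209f was high in dura P5 and diaphragm 2 and 8, where these sums were well below those of P4 and of diaphragm 1 and 7. The 6 classical monocyte markers, all present, summed to 42.9 to 117 CPM at P4, 257 to 285 CPM at P5 and 1486 to 1649 CPM at P6, and to 129 to 138, 221 to 263 and 897 to 1196 CPM in the diaphragm sets. Ccr2 is 1 of these 6 and made up most of the sums in dura, with 1457 to 1632 CPM at P6. The same held in diaphragm 3, 6 and 9, with 799 to 1029 CPM. The sums were thus high where Cd209f was low, largely through Ccr2. The 6 T cell markers summed to 269.7 to 307 CPM at P4, 173 to 232 CPM at P5 and 31.4 to 45.6 CPM at P6, with Cd8a at 0 at P4 and P6. In the diaphragm they summed to 54.7 to 61.3 CPM in libraries 1 and 7, 136 to 141 CPM in libraries 2 and 8 and 28 to 36.3 CPM in libraries 3, 6 and 9, with Trac at 0 in the last. The T cell sums thus had the order of the Cd209f means within each tissue, but few genes carried them. Of the 6 markers, 3 passed 1 CPM in any library at P4, 1 at P5 and 1 at P6. In diaphragm 1 and 7 there were 3, in 2 and 8 there were 2, and in 3, 6 and 9 there were 5. The 5 mast cell markers, none at 0 throughout a dural mark, summed to 30.8 to 130.3 CPM at P4, 12.3 to 23.9 CPM at P5 and 1.75 to 5.34 CPM at P6. In the diaphragm they summed to 88.8 to 147 CPM in libraries 1 and 7, 1.58 to 4.07 CPM in libraries 2 and 8 (Mcpt4, Tpsb2 and Fcer1a at 0) and 11.9 to 70.4 CPM in libraries 3, 6 and 9, an order that Cd209f did not share. The 6 lymphatic and sinusoidal endothelial markers summed to 411 to 413 CPM in diaphragm 1 and 7 and to at most 16.6 CPM in dura, with Ccl21a at 0 in all. The 8 skeletal muscle markers summed to 132 to 313 CPM in diaphragm and 3.71 to 14.3 CPM in dura, with Mb at 0 in dura. The part of these cell types in the Cd209 differences was not tested.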

How the data were processed

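Libraries of sorted macrophages were sequenced without strand information as single-end reads of 75 nucleotides, per the labels' protocols. Tools named in the submitters' processing notes are featureCounts, STAR 2.4.0j and DESeq2 1.20.0, with the build GRCm38, and none is tied to a file. The authors' deposited values are whole-number counts per Ensembl gene. Its file name calls them normalised, but they were read as raw counts because they are whole and column totals differ widely. Symbols were found for 40254 of 41388 genes, and gene models came from GENCODE on the same build.

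Prefixed diaphragm columns were added to the column of the same number: over genes whose counts in the pair sum to 20 or more, chi-square per degree of freedom was 1.01 to 1.17 in these 6 pairs and at least 10.6 in the other pairs. Genes were kept by filterByExpr, scaled with TMM factors and tested two-sided with edgeR 4.0.16 (R 4.3.3), all 9 dural columns sharing 1 fit for the marks. Standard errors are the absolute log2 change over the root of F, and 95% intervals use the test's degrees of freedom. Columns under 10000 counts were not used. Alternatives were other scalings, DESeq2 1.42.0, limma-voom (limma 3.58.1), no filter, other treatments of repeat and near-empty columns, fewer libraries and a block for the dural number. Deviations of dural columns of the same number correlated at 0.0465 to 0.222 in 9 pairs, and those of other numbers at -0.194 to 0.0771 in 18. The labels do not say that the numbers are pairs, so they entered as a block in an alternative only.

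The tests were checked on simulated counts. For dural P5 against P4 (12999 genes), the test recovered 50% of 100 genes given a log2 change of 1 and 84% of 100 given 2, and called 9 unchanged genes. For dura against diaphragm (12865 genes), it recovered 52% of 98 and 85.4% of 96, and called 2 unchanged genes.

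Named genes are the 7 members, the 3 genes most like each among those of at least 5 CPM, the members of the neighbour and DC-SIGN lists (some of the latter are not reported here), and up to 3 of each other list with the lowest adjusted p. H2-Aa, Ccr2, Ccr7, Flt3, Clec9a, Zbtb46 and Irf4 were named after their values were seen. The members and lists were chosen with earlier results of these data known.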

Additional observations from a re-analysis of the deposited data

How the results depend on the processing

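For dura against diaphragm, the count of members called was 0, and it became 1 without the dural P6 columns, 1 without diaphragm 1 and 7, and 1 without diaphragm 3, 6 and 9, where Cd209a reversed to 1.12. It stayed at 0 in the other 27 alternatives. For P5 against P4 the count of 1 became 3 with library totals alone, 3 with DESeq2, 3 with limma-voom, 3 without a filter on low counts (Cd209a and Cd209b lower, Cd209e higher), 4 with the replicate block (Cd209a, Cd209b and Cd209f lower, and Cd209e higher by 0.91, adjusted p = 0.0268) and 0 with all 16 libraries in the fit, and lay between 0 and 2 with each dural library left out. For P6 against P5 the count of 6 became 1 with all 16 libraries in the fit, lay between 5 and 6 with a library left out, and was 5 with limma-voom, without a filter and with the replicate block, each of which lost Cd209c (adjusted p = 0.0973, 0.0966 and 0.0562). Cd209a in P6 against P5 ranged from -0.089 (without P6 number 1) to 0.23. For P6 against P4 the count lay between 5 and 7 with a library left out and was 4 with all 16 libraries. It was 7 without a filter and 7 with the replicate block, where Cd209e also passed (-0.90, adjusted p = 0.0129 with the block).

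Over all genes, the 3472 calls between tissues became 1259 with dural columns summed per number and 2143 without P5. The 973 calls of P5 against P4 became 1587 without a filter, 1576 with the replicate block, 3 with all 16 libraries and 544 to 607 without P4 number 3 or P5 number 3 or 4. They became 1448 with DESeq2 and 1215 with limma-voom. The 2299 calls of P6 against P5 became 1480 without P5 number 3 and 172 with all 16 libraries, and the 4403 of P6 against P4 became 1292 with all 16. Where dural and diaphragm libraries share a fit, the spread of the diaphragm sets enters it. In the check of deviations from the mark means, 8 of 9 dural columns correlated best with a column of their own number, a hint from the data only. No paired analysis was possible for the tissues because they share no pairing of numbers. Per kb of the longest protein-coding transcript, Cd209f and Cd209g at P4 moved to 429.9 and 99.2 CPM, an alternative chosen after seeing the data.

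Depth limits Cd209c, with 7 to 13 counts at P6, and Cd209e in diaphragm 1. The protocols describe no molecular identifiers, so counts are of reads rather than molecules.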
